A study of Zea mays with 8 samples.

Results

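HB, a hemoglobin, LOB14, a transcription factor named for lateral organ boundaries, and GLK44, a G2-like transcription factor, are 3 of the 43110 maize loci in the deposited table. They were chosen by their measured values, as named genes among those that were lowest under low nitrogen, relative to high, in the dividing tissue of the leaf. RNA had been sequenced from leaf 6 of the inbred line B73 grown in hydroponic culture at low nitrogen (LN, 0.04 mM) or high nitrogen (HN, 4 mM). The tissues were the elongation zone, in which cells lengthen, and the division zone, in which they divide. The 4 groups, LN elongation, HN elongation, LN division and HN division, had 2 libraries each, described as biological replicates. The labels give no treatment or allele beyond the nitrogen supply and do not say whether plants were pooled. Each zone is a dissected piece that holds several cell types. Levels are FPKM, fragments scaled to locus length and library size, a unit judged from the values.

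Plant hemoglobins bind oxygen tightly and are known to convert nitric oxide to nitrate. The genes of many of them are induced by nitrate or by low oxygen. Lateral organ boundaries (LOB or LBD) proteins are plant DNA-binding factors first known from the edges of young organs, and in Arabidopsis some of them are induced by nitrate and repress genes of nitrogen use. G2-like factors are named after maize Golden2, a regulator of chloroplast development, and in Arabidopsis related factors are induced by nitrate and repress nitrate uptake genes.

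The table names HB itself (XLOC_041185) at chromosome 9, 145596856 to 145598153 of B73 RefGen_v3, a span of 1298 bp. By that name it matches a gene of chromosome 9 in the RefSeq gene table that has the synonyms Hb and Hbm. LOB14 (XLOC_004113, GRMZM2G044902) lies on chromosome 1 at 77152675 to 77154117 (1443 bp), and GLK44 (XLOC_002838, GRMZM2G124540) on the same chromosome at 280284828 to 280286869 (2042 bp). Each locus shares its span with 0 other loci of the table. Exons, strands and untranslated regions were not analysed here.

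All 3 genes were expressed in every HN library and were at 1.10 FPKM or less in every LN library. HB was listed at 0 in both LN elongation libraries, against 9.18 and 10.2 FPKM in the HN elongation libraries. HB in the division zone stood at 0.459 and 0.677 FPKM in LN and at 30.4 and 27.2 FPKM in HN. The LN libraries lay far below the HN libraries in both zones, with no overlap. In these bulk samples, fewer cells expressing a gene and less RNA per cell cannot be told apart. Among the 24706 loci tested, whose mean reached 1 FPKM or more in some group, HB had a higher level than 8.0% in LN division and than 82.9% in HN division.

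LOB14 was at 0.173 FPKM in LN elongation replicate 1 and listed at 0 in replicate 2, against 9.04 and 9.72 FPKM in HN elongation. The LN division libraries held 0.851 and 1.10 FPKM, and the HN division libraries 17.7 and 11.1 FPKM. The HN division replicates of this factor differed by more FPKM than any other pair for the 3 genes, and even the lower of them was far above both LN values. GLK44 was at 0.366 and 0.319 FPKM in LN elongation, against 10.3 and 13.6 FPKM in HN elongation. In LN division it was at 0.104 and 0.289 FPKM, against 7.50 and 5.52 FPKM in HN division. Again both LN libraries were below both HN libraries in each zone.

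**Figure D1:**
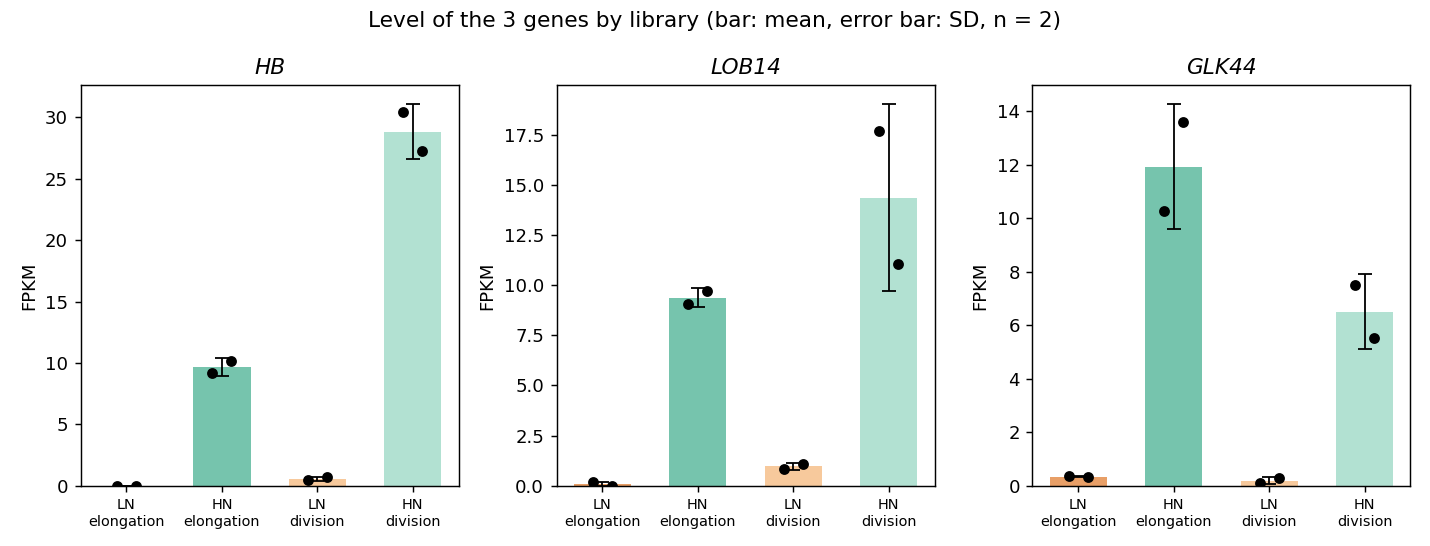
Level of HB, LOB14 and GLK44 in FPKM (vertical axes, from 0) in the LN and HN libraries of the elongation and division zones. Points are libraries, bars are means and error bars are SD (n = 2). The LN bars sit at 0 to 0.976 FPKM, below every HN library.

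The level of a locus listed at 0 was set against loci of like span. Of 2266 loci within 10% of the span of HB, 39.5 and 40.8% were listed at 0 in the LN elongation libraries, and the 5th percentile of values above 0 was 0.0491 and 0.0558 FPKM. The number of reads is unknown. Steps between low values gave relative depths of 0.763 in HN elongation replicate 2 to 1.24 in LN division replicate 1, with HN division replicate 1 set to 1. Only 19.5 to 25.4% of low values were in step, so the measure is rough.

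The genes were chosen on division zone values, so low nitrogen was tested in the elongation zone. Earlier results of these data were known at that choice. Limma was fitted on log2(FPKM + 1) over all 24706 loci, with the spread pooled over all libraries, those of the division zone included. Fitted on the 2 elongation groups alone, limma gave adjusted p = 0.0301 for HB and 0.0361 for LOB14 and GLK44. With all groups, HB fell by 3.42 ± 0.16 (SE) on the log2 scale (limma adjusted p = 0.000810). Its mean was 9.69 ± 0.722 FPKM in HN elongation (SD, n = 2). No fold is given for it, because both LN elongation libraries were listed at 0. LOB14 averaged 0.0863 ± 0.122 FPKM in LN and 9.38 ± 0.487 FPKM in HN elongation (SD, n = 2 each), a log2 change of -3.26 ± 0.23 (SE, limma adjusted p = 0.00207). For GLK44 the means were 0.343 ± 0.0327 FPKM in LN and 11.9 ± 2.34 FPKM in HN elongation (SD, n = 2 each), a log2 change of -3.26 ± 0.21 (SE, limma adjusted p = 0.00206). The LN level was 2.87% of the HN level for GLK44 and 0.920% for LOB14.

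At the adjusted threshold of 0.05, 3 of 3 genes were called lower in the elongation zone, where 12.5% of all loci were called lower and 22.4% were called in either direction. Ordered from the most negative change, HB stood 29th, LOB14 35th and GLK44 36th of the 24706 loci, and 0.146% of loci had a change at least as negative as that of GLK44. Both LN libraries lay below both HN libraries at 28.8% of all loci, so that separation alone was common. The median change of all loci was 0.07. The 3 calls held in each of 15 alternatives, with adjusted p from 0.000335 to 0.0361.

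The count of all loci called, 5531, moved with single libraries. It was 516 and 1184 without LN elongation replicates 1 and 2, and 10197 without HN elongation replicate 1. It was 3031 and 3034 without the HN division replicates, and 3512 and 3538 without the LN division replicates. With the 2 elongation groups fitted alone 42 loci were called, HB, LOB14 and GLK44 among them.

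For the division zone, which the choice of the genes used, the differences are a description with no test. HB averaged 0.568 ± 0.154 FPKM in LN and 28.8 ± 2.25 FPKM in HN division, a log2 difference of -4.25. LOB14 averaged 0.976 ± 0.176 FPKM in LN and 14.4 ± 4.66 FPKM in HN (-2.93), and GLK44 0.197 ± 0.131 FPKM in LN and 6.51 ± 1.40 FPKM in HN (-2.64), each as SD with n = 2. In this comparison 5.09% of all loci were called by limma and 3.27% of all loci were called lower, and both LN libraries lay below both HN libraries at 31.8%. The LN level was 1.97% of the HN level for HB, 6.80% for LOB14 and 3.02% for GLK44. Named genes with at least 5 FPKM in HN division that were called lower without overlap were put in order of their log2 difference. HB, LOB14 and GLK44 took places 1, 4 and 5. Places 2 and 3 went to lox1 (-4.23) and MPAO (-3.29). The next gene after these 5 was Ann6, with means of 11.4 FPKM in LN and 68.7 FPKM in HN division and a log2 difference of -2.51. Set side by side, the elongation zone change minus the division zone change was 0.83 for HB, -0.33 for LOB14 and -0.61 for GLK44, which was not tested because the division zone values had served to pick the genes.

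**Figure D2:**
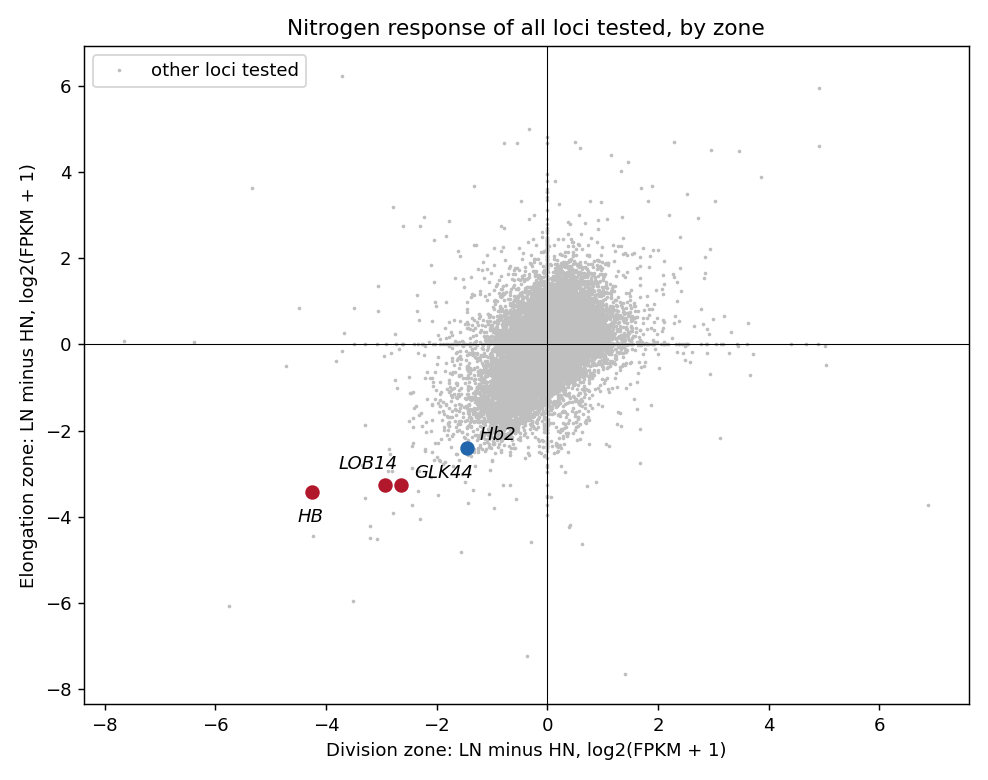
Log2 change under low nitrogen, LN minus HN in log2(FPKM + 1), in the division zone (horizontal axis) and the elongation zone (vertical axis) for the 24706 loci tested (grey). HB, LOB14 and GLK44 (red) lie at -3.42 to -3.26 on the vertical axis, and the second hemoglobin Hb2 (blue) at -2.39.

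The zones ordered the 3 genes differently at high nitrogen. HB was lower in the elongation than in the division zone, with 33.6% of its division zone mean, and LOB14 had 65.3% of it. GLK44 was the other way round, with an elongation zone mean 1.83-fold the division zone mean. In each case the 2 elongation libraries lay on the same side of both division libraries, although LOB14 at 9.72 FPKM in the higher elongation library was close to 11.1 FPKM in the lower division library. Log2 differences, elongation minus division at high nitrogen, were -1.48 for HB, -0.53 for LOB14 and 0.78 for GLK44. At low nitrogen they were -0.65, -0.86 and 0.17 in the same order, between levels that were all near or under 1 FPKM. These are descriptions too, since both zone comparisons share the division zone libraries. In HN division the order of mean levels, in FPKM and so per length, was HB, LOB14 and GLK44 (28.8, 14.4 and 6.51), with each gap larger than the SDs. In HN elongation it was GLK44, HB and LOB14 (11.9, 9.69 and 9.38), where the neighbours in that order did not differ beyond their spread. Under low nitrogen, LOB14 had the highest mean of the 3 in the division zone (0.976) and GLK44 in the elongation zone (0.343).

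The zones were checked by marker genes. All 10 mitotic cyclin, MCM and PCNA loci tested were lower in the elongation than in the division zone at each supply (limma, adjusted p under 0.05). Expansin and aquaporin loci were higher in the elongation zone at 21 of 25 at high nitrogen and at 16 of 25 at low nitrogen, where 2 were lower. The share of all loci called between the zones is not given here, so these counts stand without a background. Markers of mature blade were rbcS and RBCS of the Rubisco small subunit, PEPC1 of PEP carboxylase and C4ppdkZm1 of pyruvate phosphate dikinase, and none of them was at 0 in any library. Under low nitrogen 4 of these 4 were called lower in the elongation zone (against 12.5% of all loci) and 3 in the division zone (3.27%). Their summed level was 130.8 to 143 FPKM in the LN and 613 to 784 FPKM in the HN elongation libraries, and 14.3 to 15.2 FPKM in the LN and 47.0 to 50.3 FPKM in the HN division libraries. Summed cell cycle markers were 82.4 to 101 FPKM in LN and 111 to 155 FPKM in HN elongation, and 756 to 815 FPKM in LN and 647 to 712 FPKM in HN division. Of the 10 cell cycle loci, limma called 4 lower and 1 higher under low nitrogen in the elongation zone. In the division zone it called 0 lower and 1 higher. Of the 25 expansin and aquaporin loci, 1 was called lower and 0 higher in each zone. Among all loci, 9.86% were called higher in the elongation zone and 1.81% in the division zone. The part of tissue makeup in the falls of HB, LOB14 and GLK44 was not tested.

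A second hemoglobin gene was low under low nitrogen as well. Hb2 (GRMZM2G168898, XLOC_032183) was 0.296 and 0.195 FPKM in LN elongation, against 5.30 and 5.78 FPKM in HN elongation. It was 0.169 and 0.292 FPKM in LN division, against 2.39 and 2.31 FPKM in HN division. Both LN libraries were below both HN libraries in each zone, and the HN level was higher in the elongation than in the division zone, the reverse of HB. Hb2 fell by 2.39 ± 0.16 (SE) in the elongation zone (limma adjusted p = 0.00206) and by 1.45 ± 0.16 in the division zone (limma adjusted p = 0.00927). The elongation zone call was lost only with the 2 groups fitted alone (limma adjusted p = 0.0537). The division zone call was lost when either HN or either LN division library was left out. Hb2 was put on the hemoglobin list after its values had been seen.

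Most of the 5 other LOB loci tested were not called under low nitrogen. They were matched by symbol and synonym only, so the list need not hold the whole family. Of 9 other LOB loci found, 5 passed the filter, of which 1 rose and 1 fell in the elongation zone. Of the same loci in the division zone, 1 rose and 0 fell by limma. At an unadjusted p under 0.05, limma had 2 higher and 0 lower there. Their median log2 change was 0.11 in the elongation and 0.27 in the division zone, against 0.07 and -0.01 for all loci. Of all loci, 9.86% rose and 12.5% fell in the elongation zone, and 1.81% rose and 3.27% fell in the division zone. LBD6, the gene known as indeterminate gametophyte, averaged 7.09 ± 1.40 FPKM in LN and 3.56 ± 0.882 FPKM in HN elongation, and 6.58 ± 1.26 FPKM in LN and 2.34 ± 0.369 FPKM in HN division (SD, n = 2 each). It rose by 0.83 and 1.18 on the log2 scale (limma adjusted p = 0.0413 and 0.0377), calls that were lost in 10 and 8 of the 15 alternatives. LOB38 fell in the elongation zone, with 1.94 ± 0.175 FPKM in LN and 6.05 ± 2.71 FPKM in HN (log2 change -1.21, limma adjusted p = 0.0240), a call lost in 7 alternatives. In the elongation zone 0 LOB loci were called without LN elongation replicate 1 or 2, HN division replicate 1 or 2 or LN division replicate 1, and 1 without LN division replicate 2. Division zone calls were 2 without either HN elongation library and 0 without any other single library.

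The other G2-like loci tested, also matched by symbol and synonym only, gave few calls. Of 10 such loci 7 passed the filter, of which 1 rose and 0 fell in each zone. Among all loci, 12.5% were called lower and 9.86% higher in the elongation zone, and 3.27% and 1.81% in the division zone. With no filter on low values 1 locus of the list was called lower in each zone. At an unadjusted p under 0.05, limma had 3 higher and 0 lower in the elongation zone and 4 higher and 1 lower in the division zone. Median log2 changes of the list were 0.29 in the elongation and 0.43 in the division zone, against 0.07 and -0.01 for all loci. GLK15 rose in the elongation zone, with 13.0 ± 0.619 FPKM in LN and 7.52 ± 0.346 FPKM in HN (log2 change 0.72, limma adjusted p = 0.0126). GLK23 rose in the division zone, with 3.96 ± 0.638 FPKM in LN and 1.23 ± 0.510 FPKM in HN (log2 change 1.16, limma adjusted p = 0.0388). In the elongation zone 0 of these loci were called without either LN elongation library. Division zone calls were 3 without either HN elongation library and 0 without any other single library. Neither family list was tested against GLK44 or LOB14.

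Nitrate taken up by a plant is reduced by nitrate and nitrite reductase, and genes of these enzymes are known targets of nitrate. The nitrate response list held such genes and also loci with nitrate transporter symbols (NRT and NAR2), NLP8, fnr1, pgd2 and pgd3. Of its 14 loci 7 passed the filter, and 4 fell in the elongation zone and 1 in the division zone. By limma 0 rose in either zone, also at an unadjusted p under 0.05. Of all loci, 12.5% were called lower in the elongation zone and 3.27% in the division zone. The symbols of fnr1, pgd2, pgd3 and NAR were put on the list after the tables had been seen, and they make up 4 of the 7 loci tested and 2 of the 4 that fell. The median log2 changes of the list, -1.31 in the elongation and -0.79 in the division zone, are the values of pgd3 and NAR and so rest on that addition. NNR1, a nitrate reductase, was 3.91 and 1.52 FPKM in LN and 10.6 and 18.5 FPKM in HN elongation (log2 change -2.09, limma adjusted p = 0.0119). NIR, nitrite reductase, was 12.8 and 6.98 FPKM in LN and 25.6 and 32.8 FPKM in HN elongation (-1.52, limma adjusted p = 0.0144). It was 3.39 and 3.93 FPKM in LN and 12.6 and 9.85 FPKM in HN division (-1.38, limma adjusted p = 0.0420). Both genes had LN libraries below HN libraries without overlap in each zone. That held at 28.8% of all loci in the elongation and 31.8% in the division zone. In the elongation zone both genes changed by less than HB, LOB14 and GLK44. The other falls in the elongation zone were in fnr1, a ferredoxin-NADP reductase (log2 change -1.35), and pgd3, a phosphogluconate dehydrogenase (-1.31). Of the 15 alternatives, the elongation zone call was lost in 7 for pgd3, 3 for fnr1, 3 for NIR and 2 for NNR1. The division zone call of NIR was lost in 8. Without LN elongation replicates 1 and 2 there were 2 and 0 calls in the elongation zone. In the division zone there were 3 without either HN elongation library and 0 without any other single library.

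Genes known to respond to low oxygen, another setting in which plant hemoglobins rise, showed no common direction. Of 8 loci found, 6 were tested. ADH2 rose and ACO20, by its symbol an ACC oxidase of ethylene synthesis, fell in the elongation zone. Limma called 0 in the division zone, also in each of the 15 alternatives, and 1 had an unadjusted p under 0.05. These counts of 2 and 0 of 6 stand beside 22.4% of all loci called in either direction in the elongation zone and 5.09% in the division zone, so that 0 of 6 is near the background. The median log2 change was 0.04 in the elongation and -0.06 in the division zone. ADH2, an alcohol dehydrogenase, was 11.9 ± 1.91 FPKM in LN and 6.00 ± 0.343 FPKM in HN elongation (0.87, limma adjusted p = 0.0189). ACO20 was 0.255 ± 0.0443 FPKM in LN and 3.04 ± 0.711 FPKM in HN elongation (-1.68, limma adjusted p = 0.00968). Changes of adh1, adh1C, pdc3 and SH-1 in the elongation zone were 0.46, 0.19, -0.12 and -0.60, uncalled. By limma adh1 was called higher with equal library totals (adjusted p = 0.00513), with equal upper quartiles (0.0293) and without HN elongation replicate 2 (0.0411). SH-1, a sucrose synthase, was called lower by limma with equal upper quartiles (adjusted p = 0.0497) and without HN elongation replicate 1 (0.00917). The value of pdc3 was 0.34 with equal library totals and 0.13 without HN elongation replicate 2. Without either LN elongation library 0 loci of the list were called. Adjusted p in the division zone was 0.156 or higher for each of the 6.

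**Figure D3:**
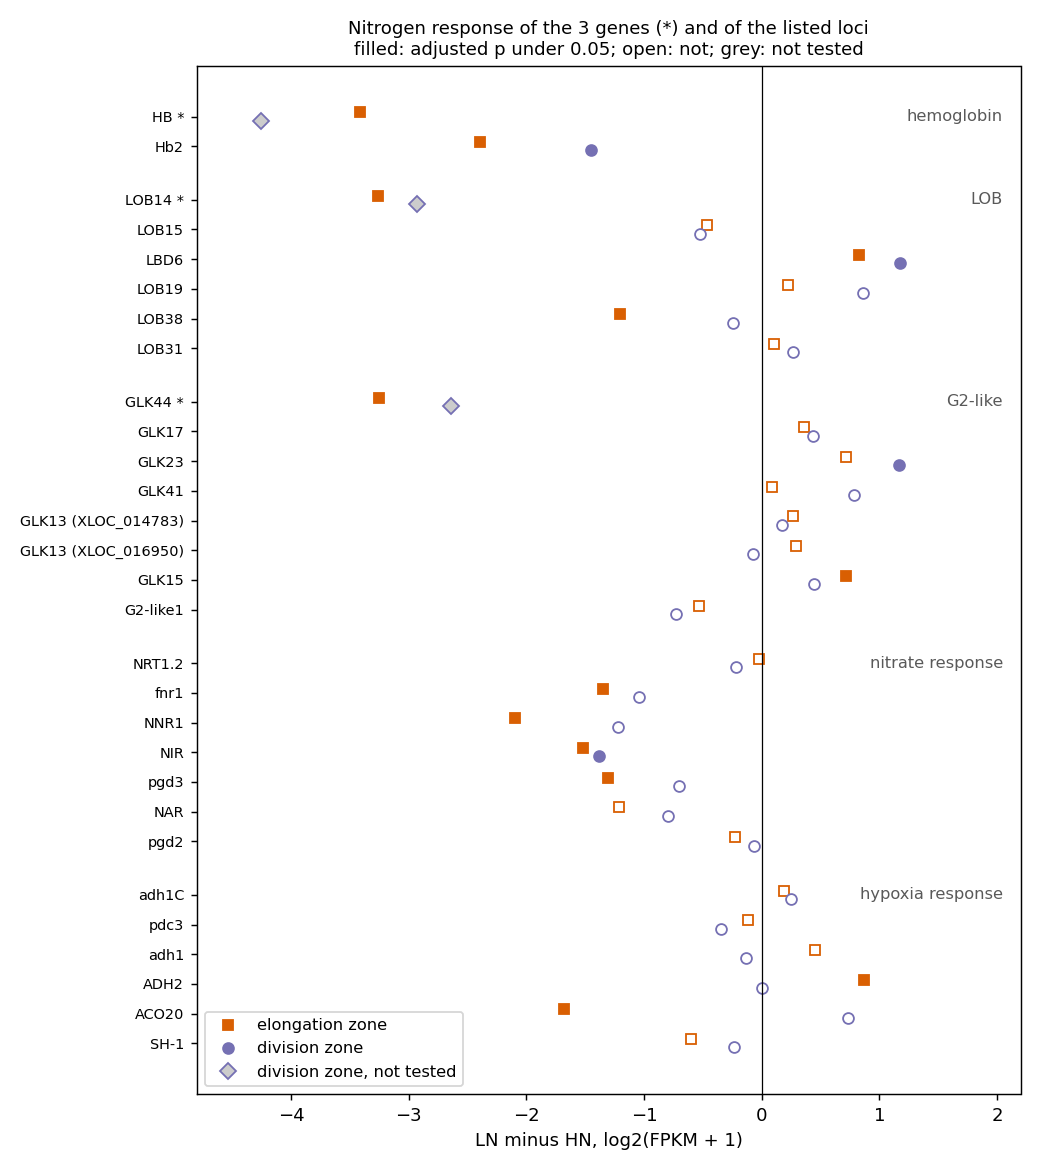
Log2 change under low nitrogen (horizontal axis, LN minus HN in log2(FPKM + 1)) in the elongation zone (squares) and division zone (circles) for HB, LOB14 and GLK44 (asterisked names, grey diamonds for untested division zone values) and each tested locus of the 5 lists. Filled symbols passed limma's adjusted threshold of 0.05 and open ones did not. In the elongation zone each of the 3 genes lies to the left of every other tested locus of its list. Their division zone values had served to pick them, so their place there is no result.

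Loci next to the 3 genes that passed the filter changed less than they did in the elongation zone. On one side of HB, 1652 bp away, 2 loci of equal span carry GRMZM2G067426. The higher of them, XLOC_041184, was 5.70 and 5.83 FPKM in LN and 2.36 and 1.87 FPKM in HN elongation, a rise of 1.12 on the log2 scale (limma adjusted p = 0.00741) that was not called without either LN elongation library. The other, XLOC_042732, was not called (0.52). On the other side, 5814 bp away, lay aos1, an allene oxide synthase of jasmonate synthesis. It was 133 and 135 FPKM in LN and 206.7 and 343 FPKM in HN elongation (-0.98, limma adjusted p = 0.0400), a call lost in 10 of 15 alternatives, among them leaving out HN elongation replicate 2, either LN elongation library or any division zone library. The neighbours of LOB14, GRMZM2G157164 and an unnamed locus, lay 111262 and 67406 bp away and changed by -0.47 and -0.93 in the elongation zone, uncalled (limma adjusted p = 0.107 and 0.0656). Beside GLK44, GRMZM5G817934 at 8581 bp and SnRK2.8, a protein kinase gene at 69901 bp, changed by -0.53 and 0.34, also uncalled (limma adjusted p = 0.0563 and 0.134). Limma called GRMZM5G817934 lower with the filter at a group mean of 5 FPKM (adjusted p = 0.0475). It called SnRK2.8 higher with equal library totals (adjusted p = 0.00875) and equal upper quartiles (0.0411). Without HN elongation replicate 1, GRMZM2G157164, the unnamed locus and GRMZM5G817934 changed by -0.62, -1.28 and -0.64.

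Likeness of pattern was measured as Pearson's r of log2(FPKM + 1) over the 8 libraries, among 17959 loci with a group mean of at least 5 FPKM, of which 1780 had a gene name. The 8 libraries share supply, zone and depth, and r is a description with no p. Between the 3 genes r was 0.983 for HB with LOB14, 0.926 for LOB14 with GLK44 and 0.887 for HB with GLK44. All 3 were picked for low LN values in the division zone, whose libraries are among the 8. A high r between them was favoured by that choice and is no result. The 5 named genes most like HB were gos1 (r = 0.989), SIR, a sulfite reductase (0.986), phb3, a prohibitin (0.982), and the enolase genes named enolase (0.981) and ENO1 (0.974). LOB14 had phb3 (0.993), gos1 (0.989), enolase (0.985), the cytokinin response regulator crr5 (0.978) and SIR (0.977). For GLK44 they were D14a (0.986), Hb2 (0.985), the pyruvate dehydrogenase gene pdh2 (0.985), the chloroplast import receptor toc34B (0.982) and gpc4, a cytosolic glyceraldehyde phosphate dehydrogenase (0.976).

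The genes with like patterns differed in how far they changed. The gene gos1 was 58.4 ± 0.0515 FPKM in LN and 81.1 ± 1.94 FPKM in HN elongation (log2 change -0.46, limma adjusted p = 0.0520). SIR was 21.5 ± 2.04 FPKM in LN and 54.0 ± 5.24 FPKM in HN elongation (-1.29, limma adjusted p = 0.00518), a call lost without LN elongation replicate 1 (limma adjusted p = 0.0503) and with the 2 groups fitted alone (limma adjusted p = 0.0562). The prohibitin phb3 was 0.286 ± 0.0184 FPKM in LN and 4.95 ± 1.20 FPKM in HN elongation (-2.19, limma adjusted p = 0.00366), the most negative change of the 6 genes named for HB and LOB14. With the 2 groups fitted alone its call was lost too (limma adjusted p = 0.0562). D14a was 1.45 ± 0.177 FPKM in LN and 40.0 ± 4.32 FPKM in HN elongation (-4.06, limma adjusted p = 0.000860), a more negative change than in HB, LOB14 or GLK44.

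**Figure D4:**
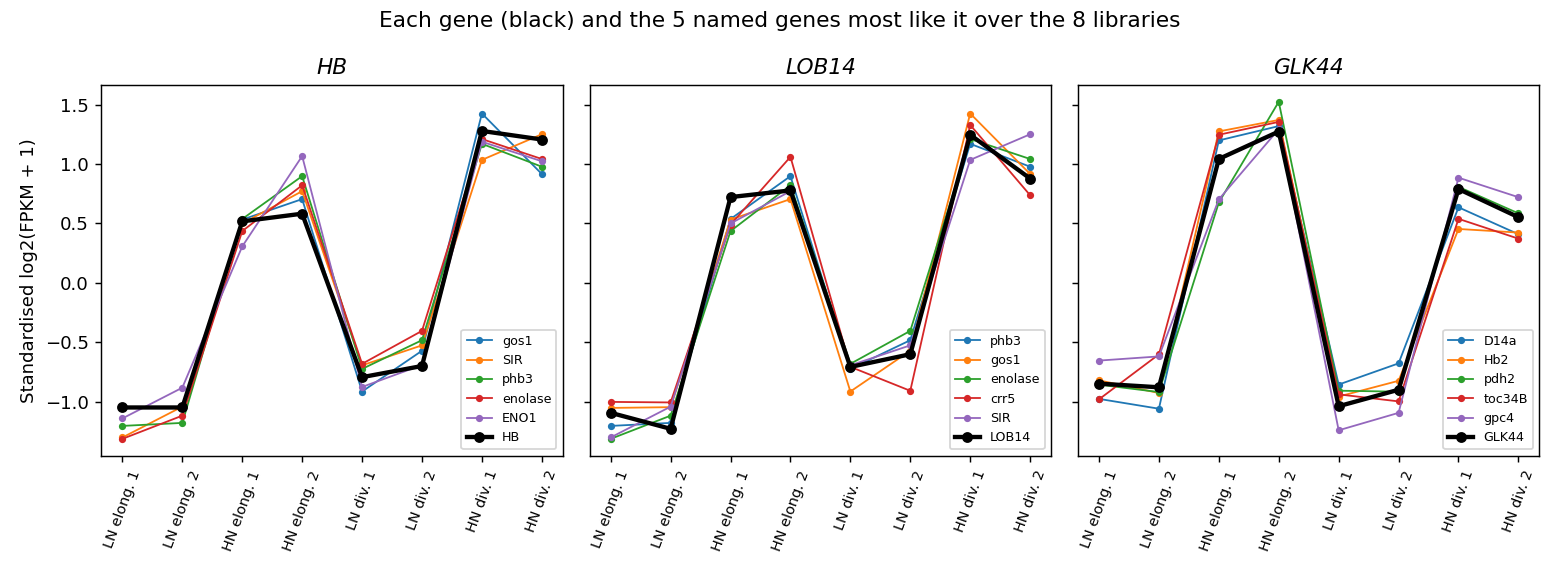
Log2(FPKM + 1) in each of the 8 libraries, centred on each gene's mean and divided by its SD over the libraries (vertical axis), for HB, LOB14 and GLK44 (black) and the 5 named genes with the highest Pearson's r to each. Lines only join the points of a gene; HB and LOB14 stand highest in the HN division libraries and GLK44 in the HN elongation libraries.

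As a description of the table, since both the levels and the 3 genes were picked with these libraries in view, other loci with a like division by supply were counted. By levels chosen after the values of the 3 genes had been seen, 13 loci had at least 5 FPKM in all 4 HN libraries and at most 1.5 FPKM in all 4 LN libraries. HB, LOB14 and GLK44 were the 3 of these with a gene name. In the opposite direction there was 1 such locus, without a gene identifier. Changes at least as negative as the least of the 3 genes in each zone were found at 11 loci, the 3 included.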

How the data were processed

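RNA from 8 libraries of leaf 6 had been sequenced. TopHat2 and edgeR and the build B73 RefGen_v3 are named in the submitters' processing notes, without versions or roles. The deposited table holds 43110 loci on 44070 lines. Its values were taken as FPKM from the values themselves, since neither the header nor the labels name the unit, and the authors' normalisation is not given in the sources used here. Read depth is unknown, so no counting interval can be given. The sums of FPKM per library were 652957 to 1113553.

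Names came from the table and, by identifier, from the RefSeq gene table of another assembly (18777 loci matched). Lists were matched on symbols and synonyms only, since that table gives no descriptions. The 3 genes and the lists were chosen with earlier results of these data known. Hb2 and the symbols NAR, fnr and pgd were added after the tables had been seen.

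Differences were fitted with limma 3.58.1 in R 4.3.3 (lmFit, eBayes with trend) on log2(FPKM + 1). The fit had 4 group means and 4 residual degrees of freedom, over the 24706 loci whose mean reached 1 FPKM or more in some group. P-values were Benjamini-Hochberg adjusted over all of these, with a threshold of 0.05. A change is LN minus HN or elongation minus division, and it understates the fold of low loci. P-values rest only on the spread between the 2 replicates within groups, pooled over the 4 groups and moderated over all loci tested. Named were the 5 named genes of highest Pearson's r to each gene, called loci of the lists, all tested hemoglobin and hypoxia loci, and the nearest locus on each side. Any other gene was named with its values in view. The alternatives changed the pseudocount, the filter, the scaling or the groups fitted, added a replicate term, or left out each library. The labels do not say whether a replicate number marks shared plants or days.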

Additional observations from a re-analysis of the deposited data

How the results depend on the processing

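HB, LOB14 and GLK44 kept their elongation zone calls under all 15 alternatives, with log2 changes of -6.61 to -3.17, -5.84 to -3.0 and -4.75 to -2.95. The most negative values came from a pseudocount of 0.1, which also moved the untested division zone differences to -5.45, -3.72 and -4.53. With one library left out they ranged from -3.49 to -3.35 for HB, from -3.38 to -3.15 for LOB14 and from -3.44 to -3.07 for GLK44. Loci called in the elongation zone numbered 8682 with equal library totals and 42 with the 2 groups fitted alone, and 516 to 10197 with one library left out. Equal totals moved the median of all loci by 0.37 in the elongation and 0.15 in the division zone, and equal upper quartiles by 0.07 and 0.03.

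The replicate block left the changes of the 3 genes at -3.42, -3.26 and -3.26 (limma adjusted p = 0.00385, 0.00654 and 0.00631). Same-numbered libraries deviated with r = -0.04 in the elongation and -0.19 in the division zone. The labels do not say what a number marks, so no pairing was assumed. With the block, 1 LOB locus was called in the elongation zone, and 0 LOB, 0 G2-like and 0 nitrate loci in the division zone.

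In the elongation zone, equal totals gave 1 LOB and 4 G2-like calls, upper quartiles 2 G2-like and 4 hypoxia calls, and no filter 1 LOB and 2 G2-like calls, 1 of the 2 lower. The 2 groups alone gave 0 in each of the 4 lists. One library left out gave 0 to 2 LOB, 0 to 1 G2-like, 0 to 3 hypoxia and 0 to 4 nitrate calls. In the division zone, equal totals gave 2 LOB, 2 G2-like and 2 nitrate calls, upper quartiles 2 G2-like, and the pseudocount of 0.1 gave 2 nitrate calls. No filter gave 0 LOB, 2 G2-like (1 of them lower) and 0 nitrate calls, and the 2 groups alone 3 nitrate calls. One library left out gave 0 to 2 LOB, 0 to 3 G2-like and 0 to 3 nitrate calls.

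Some uncalled values changed sign. With one library left out, division zone changes ran from -0.12 to 0.13 for ADH2, -0.12 to 0.090 for GRMZM2G157164 and -0.14 to 0.064 for SnRK2.8. With equal totals they were 0.081 for GRMZM2G157164, 0.15 for SnRK2.8, 0.030 for GRMZM5G817934 and 0.062 for adh1, and with upper quartiles 0.0052 for GRMZM2G157164 and 0.0073 for SnRK2.8. In the elongation zone pdc3 was 0.34 with equal totals and -0.36 to 0.13 with one library left out. The causes of these changes were not tested. Absolute depth is unknown, so a value of 0 gives no upper limit.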
